A study of Mus musculus with 8 samples.

Results

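The 49 genes described here make the enzymes and structural proteins with which a cell copies its DNA and then divides. They were given as a list of symbols and comprise 23 S-phase genes and 26 mitotic genes among 18193 genes that at least 1 probe set names alone. Of the 49, 48 were measured, by 107 of the 45037 probe sets tested, and 36 genes had more than 1 probe set. *Ccnb1*, the B-type cyclin of mitotic entry, is not analysed here because the annotation used names no probe set for it.

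RNA from whole prostate of 3-month-old mice was hybridised to 8 Affymetrix mouse arrays, 4 from *Olfm4*-knockout (*Olfm4*-/-) mice and 4 from wild-type (*Olfm4*+/+) mice. Both genotypes shared a mixed background, National Institutes of Health Black Swiss and 129/SV at 50% each, and the study's methods give the knockout line as one kept by crossing heterozygous mice. Values are on the log2 scale, so that a difference of 1 is a doubling of signal, and a gene is represented by its brightest probe set. Knockout arrays 3 and 4 and wild-type arrays 1 and 4 were run on array day 1, and the remaining 4 arrays on array day 2.

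*Olfm4*, the deleted gene, averaged 3.11 ± 0.10 in knockout arrays and 10.48 ± 0.25 in wild-type arrays (SD, n = 4 each), with all arrays on the side their label gives. Luminal epithelial markers, 8 of 10 measured, had mean levels between 12.61 and 14.22, and their score moved by no more than 0.04 in either direction on any array. As a guide to background, the 95th percentile of 44 probe sets for olfactory receptor genes lay at 4.56. All 48 members had a mean above it, from 5.02 for *Cdc6* to 11.60 for *Prim1*, and 47 lay above it on every array. By contrast, 21 of the members' 107 probe sets had a mean at or below it. Genes of tissues not sampled, 10 of 14 measured, had means from 2.99 to 6.11, with 7 of them under 5. Several members, among them *Cdc6*, *Aurkb*, *Nuf2*, *Bub1* and *Kif11*, had means under the highest of these.

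Replication origins are licensed in G1, when Cdc6 and Cdt1 load the ring-shaped Mcm2-7 helicase onto DNA, and they fire in S phase after cyclin E and Cdk2 become active. Transcription of the S-phase genes is driven by E2F factors. Transcription of the mitotic genes peaks later, in G2 and mitosis, and depends on the DREAM and MMB-FOXM1 complexes, which act at CHR elements. The same promoters often hold CCAAT boxes nearby. The adult prostate is a slowly renewing secretory gland in which few epithelial cells divide at any time.

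Promoters of the members were searched for these letters, and the counts are given with no test. RefSeq windows of 300 bases on GRCm38.p6, 250 before the start of transcription and 50 after it, were given for 20 S-phase and 20 mitotic members. They were searched on both strands for the E2F letters TTTCGCGC, TTTGGCGC, TTCCCGCC and TTTCCCGC, the CHR letters TTTGAA and TTCGAA, and CCAAT. A gene counted as holding a motif where any of its windows held it. E2F letters were found for 13 of 20 S-phase members (65.0%) and 1 of 20 mitotic members (5.0%), against 4.0% of all 27025 genes with a window. CHR letters were found for 3 S-phase members (15%) and 15 mitotic members (75.0%), against 21.7% of all genes. CCAAT was present for 14 S-phase members (70.0%) and 16 mitotic members (80.0%), against 41.1% of all genes. Both CHR letters and CCAAT were found for 14 mitotic members (70.0%), against 9.65% of all genes. The other mitosis genes fixed as a list for comparison held CHR letters in 34 of 45 cases, and the other replication genes held E2F letters in 9 of 21.

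The 200 bases before the start are printed 5′ to 3′ for 3 S-phase and 3 mitotic members whose values are central below, with the letters searched for in capitals. For the S-phase members, *Mcm7* lies on the minus strand (chr5:138171884-138172083), *Mcm6* on the minus strand (chr1:128359706-128359905) and *Mcm5* on the plus strand (chr8:75109309-75109508). *Mcm7* has a second window that is not shown.
Mcm7: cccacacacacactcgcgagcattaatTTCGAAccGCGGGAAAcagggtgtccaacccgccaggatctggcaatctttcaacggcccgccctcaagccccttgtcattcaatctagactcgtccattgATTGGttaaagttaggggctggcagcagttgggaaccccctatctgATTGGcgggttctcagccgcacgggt
Mcm6: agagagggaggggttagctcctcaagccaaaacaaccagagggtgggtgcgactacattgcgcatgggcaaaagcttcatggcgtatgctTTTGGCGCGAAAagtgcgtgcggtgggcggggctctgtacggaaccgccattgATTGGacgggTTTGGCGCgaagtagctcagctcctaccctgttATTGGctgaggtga
Mcm5: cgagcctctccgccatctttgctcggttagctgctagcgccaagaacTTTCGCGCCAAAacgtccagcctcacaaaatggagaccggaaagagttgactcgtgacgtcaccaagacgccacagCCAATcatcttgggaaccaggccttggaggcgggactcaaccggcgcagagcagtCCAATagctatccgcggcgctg
In *Mcm6* and *Mcm5* a pair of E2F matches on opposite strands overlap, starting 110 and 106 bases before the start in *Mcm6* and 153 and 149 bases before it in *Mcm5*. *Mcm7* holds CHR letters and E2F letters 173 and 165 bases before the start.

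For the mitotic members, *Prc1* lies on the plus strand (chr7:80294276-80294475), *Cdc20* on the minus strand (chr4:118437344-118437543) and *Mki67* on the minus strand (chr7:135716380-135716579). *Prc1* has another window that is not shown, in which CCAAT and the CHR letters start 37 and 5 bases before the start.
Prc1: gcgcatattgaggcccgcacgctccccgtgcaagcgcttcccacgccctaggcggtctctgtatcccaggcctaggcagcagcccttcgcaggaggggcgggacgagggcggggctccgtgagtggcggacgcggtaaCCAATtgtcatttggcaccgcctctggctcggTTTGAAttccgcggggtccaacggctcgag
Cdc20: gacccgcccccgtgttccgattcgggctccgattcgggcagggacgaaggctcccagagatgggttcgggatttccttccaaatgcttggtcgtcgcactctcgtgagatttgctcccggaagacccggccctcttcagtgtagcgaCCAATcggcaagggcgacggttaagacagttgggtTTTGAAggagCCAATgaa
Mki67: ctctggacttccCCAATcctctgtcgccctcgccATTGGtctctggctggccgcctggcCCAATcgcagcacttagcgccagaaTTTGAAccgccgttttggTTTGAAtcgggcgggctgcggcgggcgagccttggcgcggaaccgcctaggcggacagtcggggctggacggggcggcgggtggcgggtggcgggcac
In *Prc1* CCAAT starts 62 bases and the CHR letters 30 bases before the start, and in *Cdc20* they start 53 and 18 bases before it. *Mki67* holds CHR letters 116 and 98 bases before the start, downstream of 3 CCAAT matches. A match describes these letters only and was not tied to binding of any factor.

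None of the 48 members passed the genotype test. With limma, array day as a block and Benjamini-Hochberg adjustment over all probe sets, 0 members were called at an adjusted p under 0.05, against 0.17% of all genes (31 of 18193). None of the members' 107 probe sets was called either, against 0.111% of all probe sets. The smallest adjusted p among them was 0.183, for a probe set of *Mcm7*. At an unadjusted p under 0.05, 3 members had a higher mean in knockout, against 6.27% of all genes, and 7 had a lower mean, against 8.49% of all genes. Those counts amount to 6.25% and 14.6% of the 48 members. The count of higher members was 1 without wild-type array 3 and 1 within either array day, and the count of lower members was 2 within array day 1.

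The 2 lists are described by their counts and medians, and the difference between them was not tested. Of 23 S-phase members, 16 had a lower mean in knockout than in wild-type prostate, and 12 of 25 mitotic members did, against 53.8% of all genes. The median log2 difference was -0.13 for S-phase members, 0.02 for mitotic members and -0.01 for all genes. For S-phase members the median was 0.00035 within array day 1 and -0.26 within array day 2. For mitotic members it was 0.12 within day 1 and -0.12 within day 2, so the sign of the mitotic median turned between days. It also turned on leaving out knockout array 3, to -0.15, while the S-phase median without single arrays ran from -0.24 to -0.031.

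**Figure D1:**
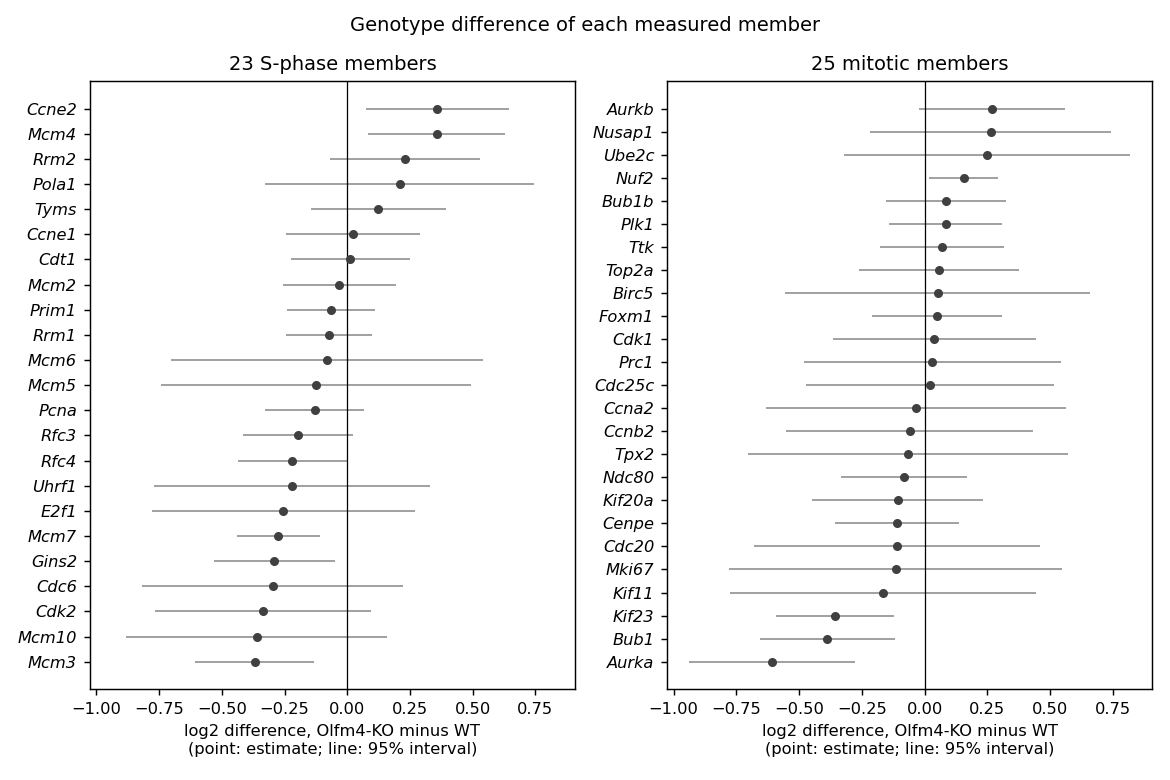
Difference in log2 value between *Olfm4*-knockout and wild-type prostate for each of 23 S-phase members (left) and 25 mitotic members (right), with 95% intervals from the limma fit (4 arrays per genotype). *Aurka*, at -0.61, lies farthest from 0, and most intervals include 0.

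The 6 helicase subunits differed among themselves. For *Mcm7*, one of the 6, values were 10.59, 10.41, 10.61 and 10.55 in knockout arrays 1 to 4, and 10.81, 10.87, 10.71 and 10.88 in wild-type arrays 1 to 4. All knockout arrays lay below all wild-type arrays, and the log2 difference was -0.27 ± 0.07 (SE; unadjusted p = 0.0056, limma adjusted p = 0.245). All 4 probe sets of *Mcm7* were lower in knockout, by differences of -0.37, -0.31, -0.27 and -0.24.

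*Mcm3*, another subunit, had values of 7.33, 7.15, 7.23 and 7.14 in knockout arrays and 7.49, 7.84, 7.43 and 7.58 in wild-type arrays. Again the genotypes did not overlap, and the difference was -0.37 ± 0.10 (SE; unadjusted p = 0.0072, limma adjusted p = 0.257). Its other 4 probe sets differed by -0.23, -0.17, -0.09 and -0.03.

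*Mcm4* lay on the opposite side. Its brightest probe set read 10.55, 10.51, 10.23 and 10.30 in knockout arrays and 10.09, 10.12, 9.78 and 10.16 in wild-type arrays. This was the one member with every knockout array above every wild-type array, against 4.49% of all genes. The difference was 0.36 ± 0.12 (SE; unadjusted p = 0.017, limma adjusted p = 0.302). The second *Mcm4* probe set, at a mean of 8.72 in knockout and 8.74 in wild type, differed by -0.02, so the 2 probe sets of the gene disagree.

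*Mcm2* read 8.18, 7.83, 8.32 and 8.08 in knockout arrays and 8.24, 8.06, 8.09 and 8.16 in wild-type arrays. The wild-type values fell inside the knockout range, and the difference was -0.03 (95% interval -0.26 to 0.19). *Mcm5* and *Mcm6* had the widest spread of the 6 subunits. *Mcm6* read 7.47, 7.35, 8.14 and 8.08 in knockout arrays and 8.34, 8.23, 7.38 and 7.40 in wild-type arrays. In either genotype the arrays of *Mcm6* split into a high and a low pair, and the difference between genotypes was -0.08 (95% interval -0.70 to 0.54). *Mcm5* differed by -0.13 (95% interval -0.74 to 0.49), with wild-type arrays 1 and 2 at 8.55 and 8.62 and wild-type array 3 at 7.36.

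Around the helicase, *Gins2* encodes a subunit of the GINS complex that completes the active helicase. It read 8.83, 8.68, 9.08 and 8.83 in knockout arrays and 9.15, 9.20, 9.24 and 8.99 in wild-type arrays. Only knockout array 3 reached the wild-type range, and the difference was -0.29 ± 0.10 (SE; unadjusted p = 0.024, limma adjusted p = 0.322). Both probe sets of *Gins2* were lower in knockout at an unadjusted p under 0.05. The loading factors *Cdc6* and *Cdt1* differed by -0.30 (95% interval -0.82 to 0.22) and 0.01 (95% interval -0.23 to 0.25). *Mcm10*, a factor of origin firing, differed by -0.36 (95% interval -0.88 to 0.16). Knockout array 1 read 6.35 for *Mcm10*, and the other knockout arrays lay between 7.18 and 7.45.

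*Rfc4* and *Rfc3* encode subunits of the loader that places the sliding clamp Pcna on DNA. *Rfc4* read 9.85, 9.61, 9.91 and 9.98 in knockout arrays and 10.08, 10.16, 10.01 and 9.97 in wild-type arrays. Knockout array 4 and wild-type array 4 met in the middle, and the difference was -0.22 ± 0.09 (SE; unadjusted p = 0.048, limma adjusted p = 0.386). *Rfc3* differed by -0.20 (95% interval -0.42 to 0.02). *Pcna* itself read 11.35, 11.32, 11.44 and 11.57 in knockout arrays and 11.61, 11.61, 11.57 and 11.40 in wild-type arrays. Its genotypes overlapped, and its difference of -0.13 (95% interval -0.33 to 0.07) was 0.00035 within array day 1 and -0.26 within array day 2.

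The primase subunit *Prim1* and the polymerase subunit *Pola1*, which start each DNA strand, differed by -0.07 and 0.21. Enzymes of nucleotide supply differed by -0.07 for *Rrm1*, 0.23 for *Rrm2* and 0.12 for *Tyms*, and none of these 5 genes had an unadjusted p under 0.05. The *Tyms* probe set averaged 6.04 in knockout and 5.92 in wild type. A brighter probe set that *Tyms* shares with its pseudogene, with means of 9.98 in knockout and 10.16 in wild type, differed by -0.17, so the sign for *Tyms* is uncertain. Among the regulators, *Ccne2* encodes a cyclin E that activates Cdk2 at the start of S phase. It read 8.93, 9.34, 9.09 and 8.82 in knockout arrays and 8.76, 8.86, 8.61 and 8.51 in wild-type arrays. Knockout array 4 lay just below wild-type array 2, and the difference was 0.36 ± 0.12 (SE; unadjusted p = 0.021, limma adjusted p = 0.311). Its partner kinase *Cdk2* differed by -0.34 (95% interval -0.77 to 0.09), with knockout array 1 at 6.31 and the other knockout arrays between 6.83 and 7.16. *Ccne1* differed by 0.02, the transcription factor *E2f1* by -0.25 and *Uhrf1*, which maintains DNA methylation behind the fork, by -0.22. The intervals of *E2f1* and *Uhrf1* ran from -0.78 to 0.27 and from -0.77 to 0.33.

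**Figure D2:**
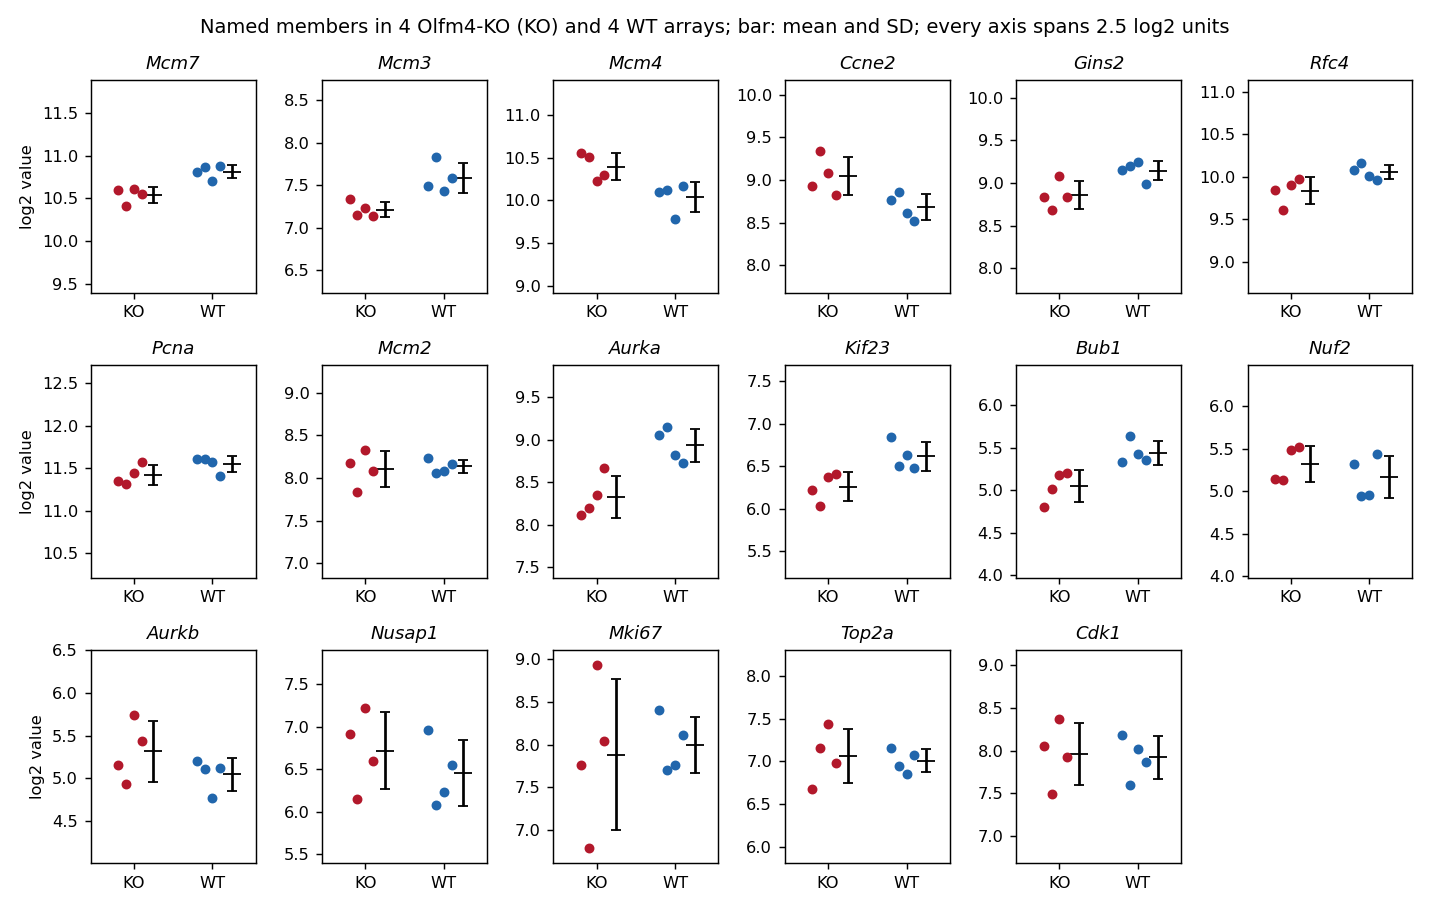
Log2 values of 17 named members in 4 *Olfm4*-knockout arrays (KO, left) and 4 wild-type arrays (WT, right), with the mean and SD beside the points. *Mcm7*, *Mcm3*, *Aurka*, *Kif23* and *Bub1* show no overlap with knockout lower, *Mcm4* shows none with knockout higher, and *Mki67* in knockout runs from 6.78 to 8.94.

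Among mitotic members, *Aurka* had the largest genotype difference of all 48. It encodes Aurora A, the kinase of centrosome maturation and spindle assembly. Knockout arrays read 8.11, 8.19, 8.35 and 8.67, and wild-type arrays read 9.05, 9.14, 8.82 and 8.73. All knockout values lay below all wild-type values, though knockout array 4 and wild-type array 4 were only a little apart. The difference was -0.61 ± 0.14 (SE; 95% interval -0.94 to -0.28, unadjusted p = 0.0032, limma adjusted p = 0.213), a wild-type level 1.52 times that in knockout. Within array days 1 and 2 it was -0.38 and -0.83. A second *Aurka* probe set, with means of 4.27 in knockout and 4.09 in wild type, lay below the background guide and differed by 0.19.

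*Kif23* encodes a kinesin of the central spindle that is needed for cytokinesis. Its values were 6.22, 6.03, 6.37 and 6.41 in knockout arrays and 6.85, 6.51, 6.63 and 6.48 in wild-type arrays. The genotypes did not overlap, and the difference was -0.36 ± 0.10 (SE; unadjusted p = 0.0083, limma adjusted p = 0.263). *Bub1*, a kinase of the spindle checkpoint, read 4.80, 5.02, 5.18 and 5.20 in knockout arrays and 5.34, 5.64, 5.43 and 5.36 in wild-type arrays. Here too the groups were separate, at a difference of -0.39 ± 0.12 (SE; unadjusted p = 0.011, limma adjusted p = 0.277). With *Mcm7*, *Mcm3* and *Aurka*, these were the 5 members with every knockout array below every wild-type array, against 6.29% of all genes. The remaining probe sets of *Kif23* and *Bub1* had means between 3.25 and 3.62, under the background guide.

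*Nuf2* belongs to the Ndc80 complex, which ties the kinetochore to microtubules. It read 5.15, 5.13, 5.49 and 5.52 in knockout arrays and 5.32, 4.95, 4.96 and 5.44 in wild-type arrays. The genotypes overlapped, and the difference was 0.16 ± 0.06 (SE; unadjusted p = 0.032, limma adjusted p = 0.347). Without array day in the fit its unadjusted p was no longer under 0.05. Its complex partner *Ndc80* differed by -0.08 (95% interval -0.33 to 0.17).

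*Aurkb* encodes Aurora B, the kinase of the chromosomal passenger complex. It read 5.15, 4.93, 5.75 and 5.44 in knockout arrays and 5.20, 5.11, 4.76 and 5.12 in wild-type arrays. Knockout arrays 3 and 4 stood above all wild-type arrays, while the other knockout arrays did not, and the difference was 0.27 (95% interval -0.02 to 0.56). *Birc5*, another subunit of that complex, differed by 0.05 (95% interval -0.55 to 0.66). *Nusap1*, a spindle protein that bundles microtubules, read 6.91, 6.15, 7.21 and 6.60 in knockout arrays and 6.96, 6.08, 6.23 and 6.55 in wild-type arrays. Its genotypes overlapped almost fully, at a difference of 0.26 (95% interval -0.22 to 0.74).

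In whole-prostate RNA the usual markers of dividing cells did not separate the genotypes. *Mki67* encodes the Ki67 antigen, present in cycling cells and absent from resting ones. It read 7.76, 6.78, 8.94 and 8.04 in knockout arrays and 8.41, 7.70, 7.76 and 8.11 in wild-type arrays. Knockout prostates held both the highest and the lowest value, and the difference was -0.12 ± 0.28 (SE; 95% interval -0.78 to 0.55, limma adjusted p = 0.900). Within array day 1 the *Mki67* difference was 0.23 and within array day 2 it was -0.46. By antibody staining, the study reported a significantly larger share of Ki67-positive cells in the dorsal-lateral prostate of knockout mice than of age-matched wild-type mice. It did so at different ages, and its youngest age group covers the age of the mice here. That stain counts cells by protein in part of the gland, while the values here are RNA of whole prostate. *Top2a*, the topoisomerase that untangles sister chromatids, read 6.68, 7.16, 7.44 and 6.98 in knockout arrays and 7.16, 6.95, 6.85 and 7.07 in wild-type arrays. The wild-type values again fell inside the knockout range, at a difference of 0.06 (95% interval -0.26 to 0.38). *Cdk1*, the kinase that starts mitosis, read 8.05, 7.49, 8.37 and 7.92 in knockout arrays and 8.18, 7.60, 8.02 and 7.87 in wild-type arrays. Its difference was 0.04 (95% interval -0.37 to 0.44).

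The remaining mitotic members differed by between -0.17 and 0.25, none with an unadjusted p under 0.05. At the upper end stood *Ube2c*, the ubiquitin-conjugating enzyme of the anaphase-promoting complex, with 0.25 (95% interval -0.32 to 0.82). At the lower end stood *Kif11*, the kinesin that separates spindle poles, with -0.17 (95% interval -0.78 to 0.45). The mitotic cyclins *Ccna2* and *Ccnb2* differed by -0.04 and -0.06, the checkpoint kinases *Ttk* and *Bub1b* by 0.07 and 0.09, and the polo kinase *Plk1* by 0.08. *Foxm1*, the transcription factor of G2 genes, differed by 0.05, the anaphase activator *Cdc20* by -0.11 and the phosphatase *Cdc25c*, which activates Cdk1, by 0.02. Spindle proteins *Tpx2* and *Prc1* differed by -0.06 and 0.03, and the kinesins *Kif20a* and *Cenpe* both by -0.11.

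Among arrays of one genotype, mitotic members had a wider spread at the median than all genes. The median SD among arrays of one genotype was 0.31 for mitotic members, 0.16 for S-phase members and 0.14 for all genes. Among arrays of one genotype and one array day it was 0.26 for mitotic members, 0.17 for S-phase members and 0.14 for all genes. The range over 4 arrays exceeded the genotype difference in both genotypes for 23 of 25 mitotic members and 15 of 23 S-phase members, against 76.5% of all genes. Between knockout arrays 3 and 2, which were run on different days, *Mki67* differed by 2.15 on the log2 scale, or 4.45-fold. That pair differed 3.43-fold for *Tpx2*, 2.68-fold for *Cdc20* and 2.54-fold for *Prc1*. Within a day, *Mki67* differed by 0.90 between knockout arrays 3 and 4 and by 0.97 between knockout arrays 1 and 2.

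The arrays at the extremes were shared. Knockout array 3 was the highest knockout array for 19 of 25 mitotic members, knockout array 2 the lowest for 20, and wild-type array 1 the highest wild-type array for 19. To score a list on an array, each gene's mean over 8 arrays was subtracted and the results were averaged over the list. The mitotic score was -0.10, -0.42, 0.44 and 0.02 in knockout arrays 1 to 4 and 0.30, -0.10, -0.11 and -0.02 in wild-type arrays 1 to 4. Knockout prostates therefore held both ends of the mitotic score. The S-phase score was -0.11, -0.16, 0.09 and 0.01 in knockout arrays and 0.18, 0.13, -0.08 and -0.06 in wild-type arrays, with wild-type arrays 1 and 2 highest.

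**Figure D3:**
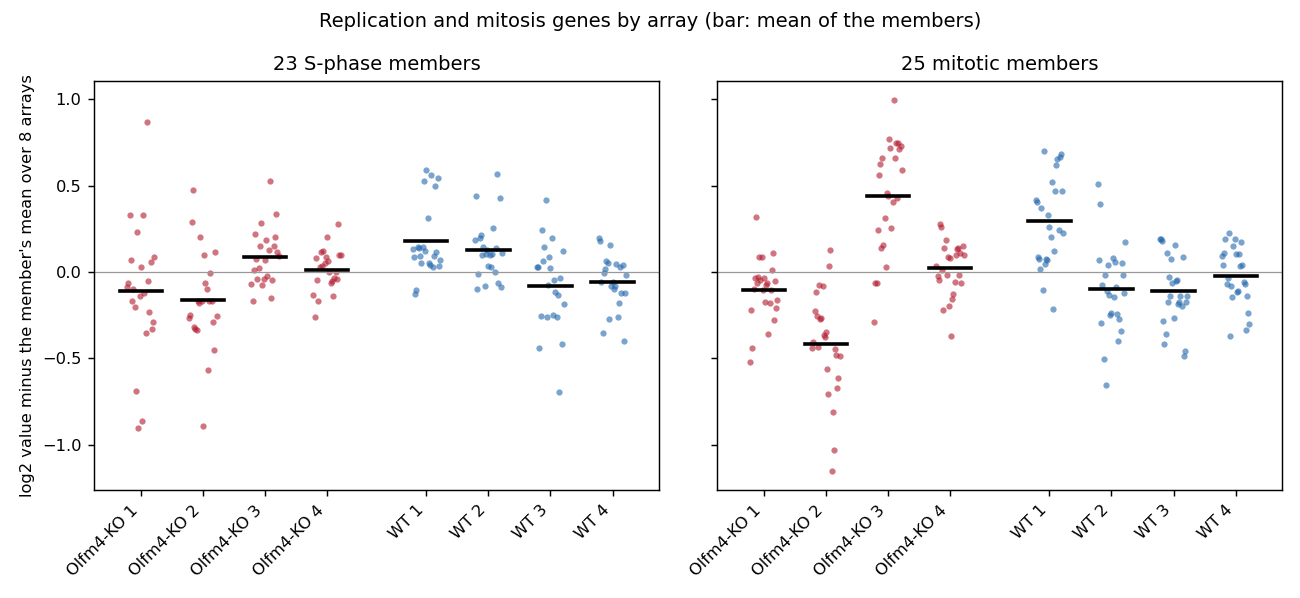
Log2 value of each member minus its own mean over 8 arrays, for 4 *Olfm4*-knockout arrays (left of each panel) and 4 wild-type arrays (right), with 23 S-phase members in the left panel and 25 mitotic members in the right. The bar is the mean of the members on that array, which for mitotic members lies at 0.44 in knockout array 3 and -0.42 in knockout array 2.

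Over the 8 arrays, each mitotic member was set against the mean of the other mitotic members. The median correlation was 0.79, and 12 of 25 members exceeded 0.8, while 1.18% of all genes did so against the mitotic mean. *Prc1*, *Cdc20*, *Mki67* and *Tpx2* each reached 0.97. *Foxm1*, *Bub1*, *Cenpe* and *Aurka* followed the rest least, at 0.11, 0.12, 0.15 and 0.17. With genotype means removed the median was 0.86, and with genotype and array day means removed it was 0.82. The latter rests on 2 arrays per genotype and day, whose deviations mirror each other, so it holds fewer independent values than 8. For neither version was a share of all genes computed. The 50 other mitosis genes measured had a median correlation of 0.65 with the mitotic mean. These correlations describe 8 arrays of bulk tissue, which were run on different array days and whose markers of cell types also differed.

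S-phase members held together less, with a median correlation of 0.53 with the rest of their list. *Uhrf1* and *Mcm6* had 0.93, while *Mcm4*, *Ccne2* and *Pola1* had -0.45, -0.30 and -0.28. *Mcm2* followed the mitotic mean more closely than its own list, with correlations of 0.91 and 0.53. The mean of the S-phase members and the mean of the mitotic members correlated at 0.74.

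**Figure D4:**
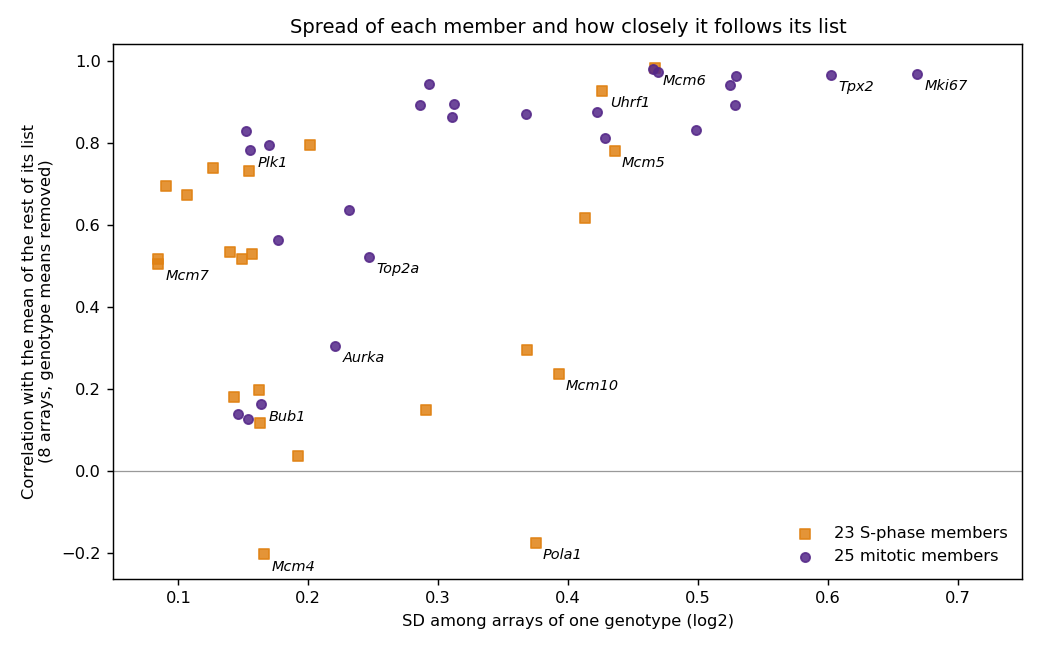
For each of 23 S-phase members (squares) and 25 mitotic members (circles), the SD among arrays of one genotype on the x axis (log2) and the correlation with the mean of the rest of its list on the y axis (8 arrays, genotype means removed). *Mki67* and *Tpx2* lie at the upper right, and *Mcm4* has the lowest correlation, at -0.20.

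Array day moved with the mitotic members. All 25 had a higher mean on array day 1 than on array day 2, against 51.0% of all genes, with a median day difference of 0.39 on the log2 scale. For 4 of them (16.0%, against 1.23% of all genes) every day 1 array lay above every day 2 array. The members varied together over the arrays, so these counts are not of independent genes. The mitotic score lay between -0.02 and 0.44 on the 4 arrays of day 1 and between -0.42 and -0.10 on the 4 arrays of day 2. For S-phase members the median day difference was 0.08, and 18 of 23 were higher on day 1. Each day held 2 arrays of either genotype, and what set the days apart was not tested.

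Markers of other cells also differed between arrays, and in whole tissue fewer cells of a type and less RNA per cell cannot be told apart. Of 12 leukocyte markers 11 were measured, with summed log2 levels of 81.0 to 85.7 in knockout arrays and 83.1 to 90.8 in wild-type arrays. The leukocyte score was -0.01, -0.41, -0.28 and 0.01 in knockout arrays and 0.43, 0.48, -0.22 and 0.01 in wild-type arrays. Wild-type arrays 1 and 2 were thus highest in both the leukocyte score and the S-phase score. Knockout array 3, highest in the mitotic score, had its leukocyte score of -0.28 mostly through *Cd3d*, at 5.71, and *Ms4a1*, at 3.83. *Cd3d*, *Ms4a1* and *Itgam* were lowest there of all arrays, while the other leukocyte markers lay within the range of the other arrays. The B cell gene *Ms4a1* read 6.63 and 6.50 in wild-type arrays 1 and 2 and between 3.83 and 4.42 on the other 6 arrays, under the background guide. Knockout array 3 also stood apart in 4 of 6 skeletal muscle markers (*Myh4*, *Tnnt3*, *Mylpf* and *Mb*), while *Acta1* and *Ckm* lay within the range of the other arrays. The score of the 6 there was 1.66, their summed level ran from 43.0 to 56.1 in knockout arrays and from 44.1 to 47.7 in wild-type arrays, and none of the other arrays had a score above 0.25. Seminal vesicle markers had a score of 3.37 in knockout array 1 and 3.71 in wild-type array 1 and were below 0 on the other 6 arrays. Knockout array 1 was also highest in the smooth muscle score, at 0.38, with the other arrays at most 0.07. In the endothelial score it read 0.45, with the other arrays at most 0.13. Of the 11 leukocyte markers measured, 9 had a lower mean in knockout and none was called. At an unadjusted p under 0.05, 1 was lower (9.09%, against 8.49% of all genes). The median difference of the 11 was -0.20. Basal epithelial and fibroblast markers had mostly higher means in knockout, beside the mostly lower means of the S-phase members and leukocyte markers. Of 9 basal markers, all measured, 8 had a higher mean in knockout and none was called, with a median difference of 0.30. At an unadjusted p under 0.05, 4 were higher (44.4%, against 6.27% of all genes). The basal score was -0.08 to 0.26 in knockout arrays and -0.21 to -0.05 in wild-type arrays. The summed level of the 9 markers was 93.3 to 96.3 in knockout and 92.1 to 93.5 in wild type. All 8 fibroblast markers had a higher mean in knockout and none was called, with a median difference of 0.27. At an unadjusted p under 0.05, 1 was higher (12.5%, against 6.27% of all genes). The fibroblast score was -0.06 to 0.44 in knockout arrays and -0.28 to 0.01 in wild-type arrays. The summed level of the 8 markers was 77.9 to 81.9 in knockout and 76.1 to 78.5 in wild type. The part of these cells in the members' values was not tested.

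Among 105 genes of the same pathways outside the 49, 1 was called (0.952%), against 0.17% of all genes. Of 28 other replication genes measured, 8 had a lower mean in knockout at an unadjusted p under 0.05 (28.6%, against 8.49% of all genes) and 0 a higher one (against 6.27%), and none was called. *Rpa2*, a subunit of the single-strand binding protein RPA, read 9.09, 8.93, 9.16 and 9.19 in knockout arrays and 9.42, 9.36, 9.38 and 9.38 in wild-type arrays. The *Rpa2* genotypes were separate, at a difference of -0.29 ± 0.07 (SE; limma adjusted p = 0.209). *Lig1*, the ligase of lagging-strand synthesis, differed by -0.30 (limma adjusted p = 0.263). *Tipin*, a fork protection factor, differed by -0.99 (limma adjusted p = 0.282), with knockout arrays 1 and 2 at 7.24 and 7.52 and the other 6 arrays between 8.67 and 9.20. The median difference of the 28 other replication genes was -0.12, with -0.07 within array day 1 and -0.18 within array day 2. Their score was -0.19, -0.19, 0.06 and -0.01 in knockout arrays 1 to 4 and 0.07 to 0.09 in wild-type arrays. It was thus lowest in knockout arrays 1 and 2, both run on array day 2.

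Among 50 other mitosis genes, at an unadjusted p under 0.05, knockout was above wild type for 1 (2.0%, against 6.27% of all genes) and below it for 2 (4.0%, against 8.49%). *Smc2*, a condensin subunit, was the one above, with 6.43, 6.68, 7.20 and 7.20 in knockout arrays and 6.58, 6.28, 6.11 and 6.52 in wild-type arrays. Its difference was 0.50 ± 0.09 (SE; limma adjusted p = 0.158). The kinesin *Kif20b*, with all arrays between 3.92 and 4.44 and so under the background guide, and the securin gene *Pttg1* differed by -0.28 and -0.40, with limma adjusted p of 0.272 and 0.386.

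Of 20 G1 and E2F-RB genes upstream of these, 1 was called, against 0.17% of all genes. It was *Rb1*, whose product holds E2F factors in check. It read 9.27, 9.32, 9.25 and 9.24 in knockout arrays and 8.75, 8.68, 8.62 and 8.80 in wild-type arrays, a difference of 0.56 ± 0.06 (SE; limma adjusted p = 0.041). *Rb1* lies on chromosome 14, as *Olfm4* does, while none of the 49 members does. Whether that position bears on its difference was not tested, and the alternative settings below were followed for members only. *Lin9*, a core subunit of DREAM and MMB, differed by 0.54 (limma adjusted p = 0.265), and *E2f2* by -0.50 (limma adjusted p = 0.294). Among 7 genes of CDK inhibitors, *Cdkn1b* (p27) read 11.16, 11.50, 11.18 and 11.10 in knockout arrays and 10.72, 10.90, 10.88 and 10.95 in wild-type arrays. All *Cdkn1b* knockout arrays were above all wild-type arrays, at a difference of 0.37 ± 0.10 (SE; limma adjusted p = 0.240). *Cdkn1a* (p21) differed by 0.52 (limma adjusted p = 0.398), with wild-type array 1, at 10.36, inside the knockout range of 10.01 to 10.48, and *Cdkn2c* differed by 0.17 (limma adjusted p = 0.530).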

How the data were processed

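The authors deposited log2 values made with RMA (version not given in the sources used here), which corrects background, equalises the arrays' distributions and so cannot show a change shared by all genes. Array medians ranged from 6.03 to 6.09, and all value columns were mapped to a sample. The number of arrays limits the precision. The methods text speaks of 5 mice per genotype, while the labels give 4 arrays and the study elsewhere 4 mice, and the labels' protocol and the methods name different RNA extraction reagents.

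Genotype was tested with limma 3.58.1 in R 4.3.3 (lmFit, eBayes, 2-sided) with array day as a block, on 45037 probe sets after 64 controls were left out, with Benjamini-Hochberg adjustment over all of them. The methods name ANOVA without covariates, which was an alternative. The fit was tested on simulated data. A gene was represented by its probe set with the highest mean among those annotated to it alone. Per-array values were given for *Mki67*, *Pcna*, *Top2a*, *Cdk1*, *Mcm2* and the 6 S-phase and 6 mitotic members with the smallest p, and up to 3 genes were named from each other pathway list. *Mcm5*, *Mcm6* and marker genes were named after their values were seen. The members and lists were chosen with earlier results of these data known. That the arrays of a genotype came from separate mice is stated by the study, not by the labels. Promoter sequences are RefSeq's, on GRCm38.p6. Tables and plots were made with python 3.11.15, pandas 2.3.3 and matplotlib 3.10.9.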

Additional observations from a re-analysis of the deposited data

Results flagged for a closer look

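In 11 of the 96 groups of 4 arrays (48 members, 2 genotypes), 1 array stood far from the other 3 by Dixon's criterion, which chance alone meets in about 1 of 20 groups. Knockout array 1 accounted for 4 of them, all S-phase members. There *E2f1* read 5.09, against 6.01 to 6.14 in the other knockout arrays, and *Ccne1* read 7.98, against 8.37 to 8.38. *Pola1* read 8.22 there, against 7.18 to 7.21, and *Tyms* read 6.31, against 5.92 to 5.98. Knockout array 2 was low for *Cdc6* at 4.12, under the background guide of 4.56, for *Cdt1* at 8.47 and for *Ndc80* at 5.63. Knockout array 3 was high for *Bub1b* at 6.33. Wild-type array 1 was high for *Cdc6* at 5.61, for *Cdc20* at 7.48 and for *Prc1* at 8.95.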

How the results depend on the processing

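No member was called under any of 22 alternatives, and the smallest adjusted p of a named member was 0.123 (*Aurka*). Of 369 values of the 17 named members under these alternatives, 351 kept their sign and their side of the threshold and 18 changed sign, for 5 genes whose differences are close to 0. The count of members higher in knockout at an unadjusted p under 0.05, 3 in all arrays, was 1 within array day 1, 1 within array day 2 and 1 without knockout array 1 and wild-type array 1. The count lower, 7 in all arrays, was 2 within array day 1 and 3 with a gene's probe sets averaged. The S-phase median was 0.00035 within array day 1 and -0.26 within array day 2. Signs turned within array day 1 for *Mki67* (0.23), *Pcna* (0.00035) and *Mcm2* (0.0038), and within array day 2 for *Cdk1* (-0.040). *Cdk1* was also below 0 with array weights (-0.023) and without knockout array 1 and wild-type array 1 (-0.022), *Mcm2* above 0 with cyclic loess (0.012) and quantile normalization (0.014), and *Top2a* below 0 with probe sets averaged (-0.033). The cause was not tested.

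Leaving out 1 array at a time gave 0 to 0 calls, 1 to 3 members higher (1 without wild-type array 3) and 5 to 9 lower. The S-phase median ran from -0.24 (without wild-type array 4) to -0.031 (without wild-type array 2), and the mitotic median from -0.15 (without knockout array 3) to 0.11 (without knockout array 2). *Mki67* ran from -0.36 to 0.15 on leaving out the same 2 knockout arrays. *Top2a* ran from -0.044 to 0.16, *Cdk1* from -0.067 to 0.17 and *Mcm2* from -0.094 to 0.045. An unadjusted p under 0.05 was kept by *Mcm7* and *Mcm3* in 21 of 22 alternatives, *Aurka* in 20, *Mcm4* in 18, *Ccne2* and *Gins2* in 16, and *Rfc4* in 7, and by *Kif23* and *Bub1* in 19 and *Nuf2* in 8 of 21.

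Arrays of both genotypes carry the numbers 1 to 4. Deviations of same-numbered arrays correlated at 0.39, 0.25, 0.023 and 0.033 over 5000 probe sets, and only knockout array 1 correlated best with its own number. These correlations cannot decide whether the numbers pair the samples, because same-numbered arrays shared an array day for some numbers and not others. Knockout array 1 and wild-type array 1 also had the high seminal vesicle scores, 3.37 and 3.71. With the replicate block in place of array day, 0 members were called, 2 were higher and 7 lower at an unadjusted p under 0.05, and the medians were -0.13 for S-phase and 0.021 for mitotic members.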
